A study of Homo sapiens with 6 samples.

Results

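The neural immunoglobulin adhesion molecules examined here are 10 genes, NCAM1, NCAM2, L1CAM, CHL1, NRCAM, NFASC, CNTN1, CNTN2, ALCAM and CADM1, chosen by symbol from the 60676 genes of the deposited tables and found there by their Ensembl identifiers. RNA was sequenced from the human neuroblastoma line SK-N-BE after 1.5 days in differentiation medium with 10 μM retinoic acid. All cells received retinoic acid, and what set the groups apart was the transfected siRNA, a scrambled control (si-SCR, 3 libraries) or a pool directed against the lncRNA CyCoNP (si-CyCoNP, 3 libraries). The labels do not say whether the 3 libraries of a group came from separate cultures, so that p-values measure only the spread between these libraries, which may be technical. The question addressed was whether the lower NCAM1 level upon CyCoNP depletion is shared by the related adhesion genes. The study picked out NCAM1 by intersecting the genes lower in these same libraries with RNAs pulled down with CyCoNP. The direction of NCAM1 here is therefore not independent evidence. Outside these libraries, the paper reports lower NCAM1 RNA and protein in depleted SK-N-BE cells. It also reports lower NCAM1 RNA in motor neurons derived from CyCoNP knock-out stem cells.

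These proteins sit on the neuronal surface and carry immunoglobulin domains outside the cell, with which they bind copies of themselves or of each other on the neighbouring membrane. NCAM1 and NCAM2 form the NCAM pair, L1CAM, CHL1, NRCAM and NFASC form the L1 family whose tails dock on ankyrins and the spectrin skeleton, and the contactins CNTN1 and CNTN2 are held by a lipid anchor and act beside L1 family members and contactin-associated proteins. ALCAM (activated leukocyte cell adhesion molecule) and CADM1 (SynCAM1) are adhesion molecules of axon bundling and of synapses. In developing neurons the group is known for guiding neurite growth, fasciculation and migration, and NCAM1 is in addition the main carrier of polysialic acid and a routine marker of neuroblastoma cells.

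Libraries held between 3762009 and 4799407 counted fragments, with 19519 to 20520 genes detected. LINC02381, the gene of CyCoNP, was counted 274, 208 and 315 times with si-SCR and 20, 30 and 12 times with si-CyCoNP, so that 7.30% of its normalised count remained (log2 fold change -3.78, SE 0.190, edgeR adjusted p = 6.84e-14). Replicates were not copies of each other (chi-square per degree of freedom of 2.56 or more), and both pairs with si-SCR library 3 were the farthest apart among the si-SCR libraries (4.34 and 5.69, against 2.74). Where a named gene passed or was called differently without that library, its value without it is therefore given as well. Levels are given as FPKM (fragments scaled by gene length and by the library total), which allows genes to be compared, and changes as log2 fold changes of si-CyCoNP over si-SCR from the counts. A gene passed at an adjusted p under 0.05, and was called when its log2 fold change was also beyond 1 or -1.

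Of the 10 genes, 8 passed the expression filter (a mean level of 1 FPKM or more in si-SCR or in si-CyCoNP) and were tested among 13966 genes. The members did not move together. NCAM1, NRCAM and ALCAM fell, NCAM2 rose, and L1CAM, CADM1, CNTN1 and NFASC did not pass the test. Of the 8 genes 4 passed in either direction, where 28.4% of all genes tested passed. The 3 that passed as lower compare with 14.2% of all genes tested, and the 1 that passed as higher with 14.2% as well. With the fold threshold, NCAM1 was the only member called lower and NCAM2 the only one called higher, where 2.98% and 2.28% of all genes tested were called in these directions. The median log2 fold change of the 8 tested members was -0.04, beside 0.01 for all genes tested.

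**Figure D1:**
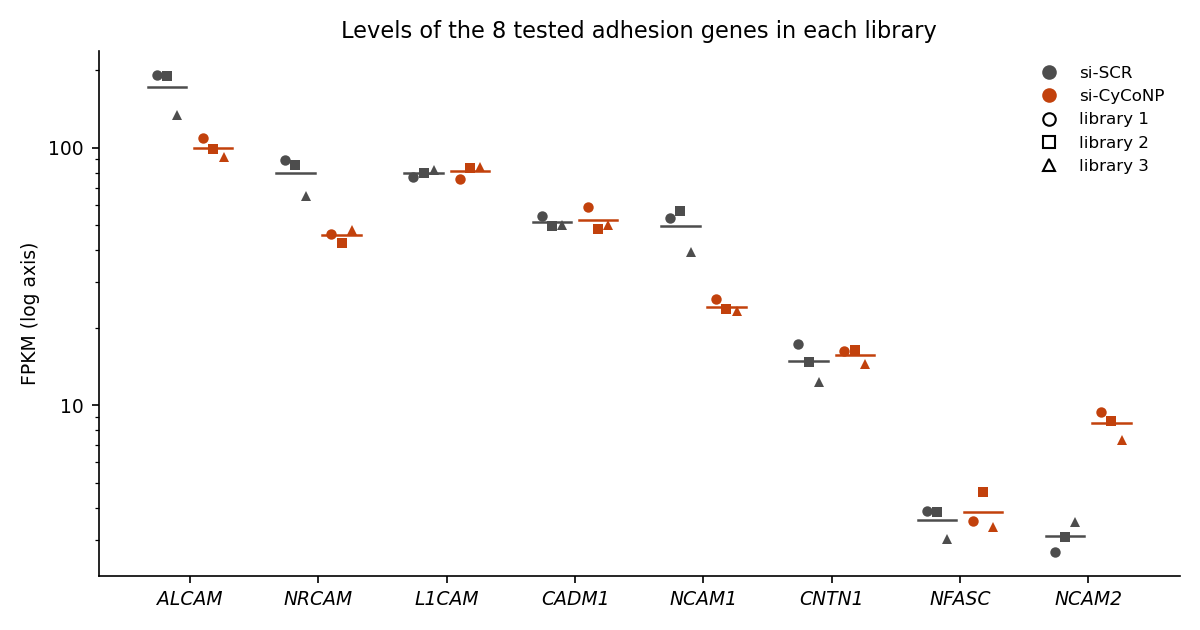
FPKM on a log axis (vertical) of the 8 tested genes (horizontal, ordered by their si-SCR mean) in each si-SCR library (grey) and si-CyCoNP library (orange), where the marker shape gives the library number and the line the group mean. The groups do not overlap for ALCAM, NRCAM, NCAM1 and NCAM2, and in the first 3 of these si-SCR library 3 lies below the other si-SCR libraries.

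NCAM1 (ENSG00000149294, chr11:112961275-113278436, plus strand, GRCh38), the founding member of the group, was counted 2906, 2711 and 2394 times in control cells and 1580, 1274 and 1221 times after depletion. In FPKM it reached 53.1, 56.6 and 39.3 with si-SCR, and 25.8, 23.5 and 23.1 with si-CyCoNP. The highest si-CyCoNP library was below the lowest si-SCR library, as for 20.0% of all genes tested, and si-SCR library 3 was the one nearest to the depleted cells. The mean fell from 49.7 ± 9.14 to 24.2 ± 1.47 FPKM (SD, n = 3), and 46.4% of the normalised count remained (log2 fold change -1.11, SE 0.104, edgeR adjusted p = 5.31e-09). Leaving out si-SCR library 3 gave -1.27, and leaving out si-SCR library 2 gave -0.999, just short of the fold threshold, still with an edgeR adjusted p of 4.76e-09. Over 14 alternative settings the estimate ran from -1.27 to -0.99, with an adjusted p of at most 0.00529. In bulk RNA, fewer cells that carry a transcript and less of it per cell cannot be told apart. The counts are per gene and do not separate the NCAM1 isoforms.

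The 3′UTR of NCAM1 carries a match to the seed of miR-4492, a microRNA that the study examined in connection with CyCoNP. The mature microRNA (RefSeq, chr11:118910765-118910781, plus strand, GRCh38.p14) is shown with its seed, bases 2 to 8, in capitals, and the 3′UTR windows of the tested members that hold the complementary letters CCAGCCC are shown with that match in capitals, each read 5′ to 3′ on the strand of its transcript.
hsa-miR-4492: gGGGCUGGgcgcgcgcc
NCAM1, chr11:113276848-113276870, plus strand: gggaaaagCCAGCCCtttgtata
L1CAM, chrX:153862408-153862430, minus strand: ctgttttgCCAGCCCatttgggc
L1CAM, chrX:153862054-153862076, minus strand: cccgccgcCCAGCCCaccccatg
NFASC, chr1:205017135-205017157, plus strand: cctggcccCCAGCCCctctgcct
NFASC, chr1:205020888-205020910, plus strand: cactccggCCAGCCCcagccaaa

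These windows come from the main annotated transcript of each gene (GENCODE 44, GRCh38), searched on the transcript strand alone. NCAM1 held 1 match in 3049 bases of 3′UTR, L1CAM 2 in 1147 bases and NFASC 2 in 6283 bases. NCAM2, NRCAM, CNTN1, ALCAM and CADM1 held none, and CHL1 and CNTN2, which were below the filter, held 1 each. The letters were present in the main 3′UTR of 23.4% of 10486 tested genes, and in 34.4% of the 3943 tested genes whose 3′UTR was at least 2000 bases long. Among the 3 members that fell, only NCAM1 held a match, and L1CAM and NFASC, which did not pass the test, held 2 matches each. A match is a description of the letters and not evidence of binding. The paper reports that blocking miR-4492 raised a luciferase reporter with the NCAM1 3′UTR, but not one without the predicted site. The libraries used here do not address this.

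NCAM2 (ENSG00000154654, chr21:20998409-21543329, plus strand), the paralog of NCAM1 best known from olfactory axons and synapses, went the other way. It was counted 96, 96 and 139 times with si-SCR and 376, 307 and 252 times with si-CyCoNP, or 2.70, 3.08 and 3.51 FPKM against 9.45, 8.72 and 7.34 FPKM. Every si-CyCoNP library lay above every si-SCR library, as was the case for 20.1% of all genes tested, and si-SCR library 3 was again the control nearest to the depleted cells. The mean rose from 3.09 ± 0.405 to 8.50 ± 1.08 FPKM (SD, n = 3), a 2.62-fold change (log2 fold change 1.39, SE 0.128, edgeR adjusted p = 3.57e-09). It stayed called in all 14 alternatives, with log2 fold changes from 1.21 to 1.48. In the FPKM of these libraries NCAM2 thus moved from 0.0648 ± 0.0212 of the NCAM1 level to 0.351 ± 0.0295 of it (SD, n = 3), and NCAM1 stayed the more abundant of the pair in every library.

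Within the L1 family, NRCAM (ENSG00000091129, chr7:108147623-108456717, minus strand), a receptor that links axonal contactins and semaphorin signalling to the ankyrin skeleton, fell. Its level was 89.2, 85.8 and 65.0 FPKM with si-SCR and 46.3, 42.5 and 48.1 FPKM with si-CyCoNP, from 3152, 2656 and 2559 counts against 1831, 1485 and 1640. The groups did not overlap, and the lowest control was si-SCR library 3. The mean went from 80.0 ± 13.1 to 45.6 ± 2.87 FPKM (SD, n = 3), with 54.4% of the normalised count left (log2 fold change -0.88, SE 0.0999, edgeR adjusted p = 1.15e-07). This is short of the fold threshold, which NRCAM crossed without si-SCR library 3 (log2 fold change -1.03).

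ALCAM (ENSG00000170017, chr3:105366909-105576900, plus strand), which pairs with itself on neighbouring axons, was the most abundant of the 10 genes and fell by a similar amount. Its level was 192, 189 and 134 FPKM with si-SCR and 109, 98.4 and 92.3 FPKM with si-CyCoNP, from 5923, 5115 and 4589 counts against 3749, 3002 and 2747. The groups did not overlap, with si-SCR library 3 again nearest to the depleted cells. The mean went from 172 ± 33 to 99.8 ± 8.35 FPKM (SD, n = 3), with 55.4% of the normalised count left (log2 fold change -0.85, SE 0.106, edgeR adjusted p = 4.78e-07). Without si-SCR library 3 the log2 fold change was -1.02 and ALCAM was called too, so that the number of members called lower was 3 without this library and 1 with it. Both NRCAM and ALCAM passed as lower in all 14 alternatives, with an adjusted p of at most 0.00833 and 0.0160.

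**Figure D2:**
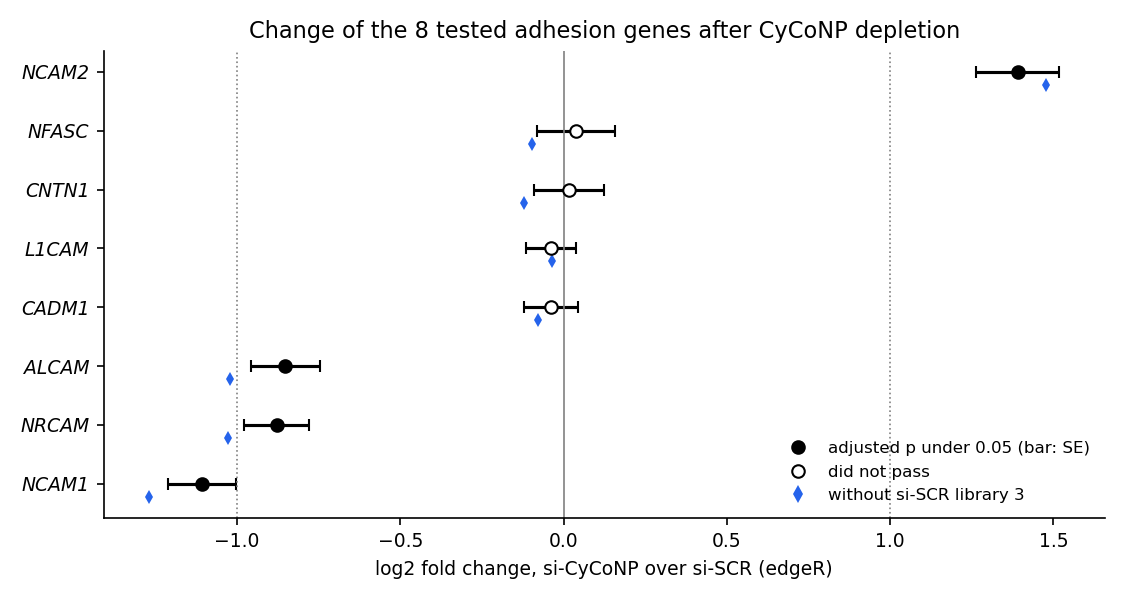
Log2 fold change of si-CyCoNP over si-SCR (horizontal) for the 8 tested genes (vertical), with the SE of the edgeR fit as bars, filled where the adjusted p was under 0.05, and with blue diamonds for the value without si-SCR library 3. Dotted lines mark a log2 fold change of -1 and 1. NCAM1, NRCAM and ALCAM lie between -1.11 and -0.85, NCAM2 lies at 1.39, and the other members lie within 0.04 of 0.

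The remaining L1 family members that were tested did not pass. L1CAM (ENSG00000198910, chrX:153861514-153886173, minus strand), the ankyrin-binding receptor after which the family is named, had 76.6, 79.9 and 82.1 FPKM with si-SCR and 75.8, 83.7 and 83.9 FPKM with si-CyCoNP. The groups overlapped, and the log2 fold change was -0.04 (SE 0.0756, edgeR adjusted p = 0.753). NFASC (neurofascin, ENSG00000163531, chr1:204828651-205022822, plus strand), which gathers channels at the axon initial segment and at nodes, was low, at 3.88, 3.86 and 3.02 FPKM with si-SCR and 3.57, 4.61 and 3.38 FPKM with si-CyCoNP. Its groups overlapped as well (log2 fold change 0.04, SE 0.121, edgeR adjusted p = 0.852). L1CAM shares 439 exon bases on the same strand with the gene ENSG00000284987, which had 0 counts in each library, and the other members share none with a gene on their strand.

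CNTN1 and CADM1 did not pass either. CNTN1 (ENSG00000018236, chr12:40692439-41072415, plus strand), a lipid-anchored ligand of L1 family proteins, had 17.3, 14.7 and 12.4 FPKM with si-SCR and 16.2, 16.3 and 14.5 FPKM with si-CyCoNP. CADM1 (ENSG00000182985, chr11:115169218-115504957, minus strand), a synaptic adhesion molecule, had 54.1, 49.8 and 50.0 FPKM with si-SCR and 58.6, 48.4 and 49.9 FPKM with si-CyCoNP. The groups overlapped for both. Log2 fold changes were 0.02 (SE 0.108, edgeR adjusted p = 0.936) for CNTN1 and -0.04 (SE 0.0833, edgeR adjusted p = 0.770) for CADM1. For these 4 genes the sign of the estimate depended on scaling or on single libraries, and none passed under any of the 14 alternatives, where the adjusted p was 0.280 or more.

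CHL1 and CNTN2 were below the expression filter. CHL1 (ENSG00000134121, chr3:196763-409417, plus strand), the close homolog of L1, had 0 counts in each of the 6 libraries, which allows up to 3 counts or between 0.625 and 0.797 CPM (counts scaled to the library total) in a library, by counting error alone. CNTN2 (ENSG00000184144, chr1:205042937-205078289, plus strand), the axonal contactin TAG-1, was counted 9, 9 and 2 times with si-SCR and 1, 0 and 3 times with si-CyCoNP. Its groups overlapped. With no expression filter the log2 fold change fitted for CNTN2 was -2.35, at an edgeR adjusted p of 0.0407, and rests on 20 counts against 4.

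To ask directly whether the NCAM1 fall was shared, the log2 ratio of each gene to NCAM1 within the same library was compared between the groups, so that a value of 0 means a change equal to that of NCAM1. Against NCAM1, 5 of the 7 other tested members rose, while 83.5% of all genes tested did so at the same threshold (limma, adjusted p under 0.05). The difference from NCAM1 was 1.05 for L1CAM (95% interval 0.64 to 1.46, limma adjusted p = 1.72e-06), 1.05 for CADM1 (0.64 to 1.45), 1.12 for CNTN1 (0.69 to 1.54) and 1.12 for NFASC (0.68 to 1.56). It was 2.46 for NCAM2 (1.99 to 2.94). NRCAM and ALCAM were not shown to differ from NCAM1. Their differences were 0.22 (-0.18 to 0.63, limma adjusted p = 0.296) and 0.26 (-0.16 to 0.67, limma adjusted p = 0.244), so that a fall equal to that of NCAM1 and falls weaker by up to 0.63 and 0.67 on the log2 scale are within the intervals.

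The FPKM ratios show the same in each library. NRCAM stood at 1.68, 1.52 and 1.65 times NCAM1 in si-SCR and at 1.79, 1.80 and 2.08 times NCAM1 in si-CyCoNP. ALCAM stood at 3.62, 3.35 and 3.40 times NCAM1 in si-SCR and at 4.21, 4.18 and 3.99 times NCAM1 in si-CyCoNP. L1CAM stood at 1.44, 1.41 and 2.09 times NCAM1 in si-SCR and at 2.93, 3.56 and 3.63 times NCAM1 in si-CyCoNP. The ratios of all 7 genes were higher in every si-CyCoNP library than in every si-SCR library, including those of NRCAM and ALCAM, for which the step was small (exact permutation test of each ratio, two-sided, p = 0.1, the smallest that 3 libraries against 3 can give). Separation of this kind does not by itself set the members apart, since NCAM1 fell and 83.5% of all genes tested rose against it (limma). How many of all genes tested had ratios that separated in every library is not given here. All 7 ratios share the NCAM1 values, so their errors are not independent and a spread borrowed across genes carries the error of NCAM1. With each gene's own spread in place of the borrowed one, an alternative added after seeing the data, 6 of the 7 members rose against NCAM1, as did 71.1% of all genes tested. There ALCAM did differ from NCAM1 (95% interval 0.14 to 0.37, limma adjusted p = 0.0155) and NRCAM did not (-0.01 to 0.46, limma adjusted p = 0.0698). With the borrowed spread, NRCAM differed without si-SCR library 3 (0.24, limma adjusted p = 0.0407).

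**Figure D3:**
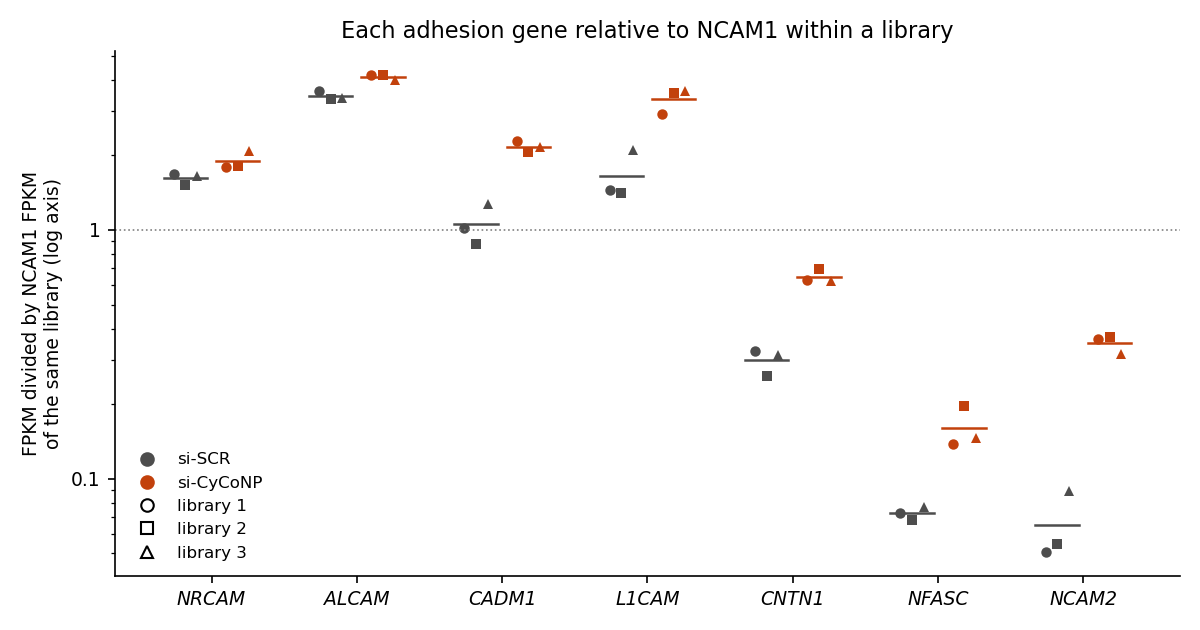
FPKM of each gene divided by the NCAM1 FPKM of the same library on a log axis (vertical), for the 7 other tested members (horizontal, ordered by their difference between groups), with si-SCR in grey, si-CyCoNP in orange, the library number as marker shape and lines for group means. The dotted line marks a level equal to NCAM1. NRCAM and ALCAM moved least, from 1.62 to 1.89 and from 3.45 to 4.13 times NCAM1 on average, and NCAM2 moved most, from 0.0648 to 0.351.

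Because some members fell while others held, the order of the family by FPKM changed. In si-SCR the order was ALCAM, NRCAM (80.0), L1CAM (79.5), CADM1 (51.3), NCAM1 (49.7), CNTN1 (14.8), NFASC (3.58) and NCAM2 (3.09). Within it the neighbours NRCAM and L1CAM, CADM1 and NCAM1, and NFASC and NCAM2 overlapped in their libraries. In si-CyCoNP L1CAM (81.1) and CADM1 (52.3) stood above NRCAM (45.6), NCAM1 (24.2) stood apart below them, and NCAM2 (8.50) stood above NFASC (3.85). No neighbours among these 8 genes overlapped in si-CyCoNP, although the highest NRCAM library (48.1) and the lowest CADM1 library (48.4) nearly met.

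The summed level of the 10 genes was 489, 483 and 389 FPKM with si-SCR and 345, 326 and 323 FPKM with si-CyCoNP. The groups did not overlap, and si-SCR library 3 was the lowest control. ALCAM made up 37.6% ± 2.82 of the sum in si-SCR and 30.1% ± 1.48 in si-CyCoNP (SD, n = 3), and NCAM1 made up 10.9% ± 0.804 and 7.30% ± 0.178. L1CAM took 17.8% ± 2.93 of the sum in si-SCR and 24.6% ± 2.23 in si-CyCoNP, with nearly the same FPKM in both, since the sum around it was smaller. NCAM2 took 0.697% ± 0.183 and 2.56% ± 0.253.

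The 5 genes whose profile over the 6 libraries lay closest to that of NCAM1 were NPTXR, GLCCI1, PKIA, TRAK2 and SYT1, by the root mean square difference of centred log2 CPM, which ran from 0.0385 to 0.0750. NPTXR is a receptor of neuronal pentraxins, PKIA an inhibitor of protein kinase A, TRAK2 an adaptor for mitochondrial transport and SYT1 the calcium sensor of synaptic vesicles. Their log2 fold changes lay between -1.14 and -1.06. Of the members, ALCAM (difference 0.135) took place 49 and NRCAM (0.140) place 58 among 13965 genes, and L1CAM, CADM1, CNTN1, NFASC and NCAM2 took place 4830 or later. These places are a description over 6 libraries that share their depth and scaling.

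Other adhesion genes of the immunoglobulin class were then examined. Like the members, this list and the lists of partners below were chosen with earlier results of these data known. The shares that passed therefore only describe the lists. Of 34 such genes, 17 passed the expression filter, 10 of them passed as lower (58.8%, beside 14.2% of all genes tested) and 1 as higher. The median log2 fold change of the 17 was -0.45. CADM4, a relative of CADM1 found on glia and epithelia, went from 5.14 ± 0.958 to 1.77 ± 0.354 FPKM (log2 fold change -1.58, edgeR adjusted p = 5.14e-05). IGLON5 (-1.22), KIRREL2 (-1.19), the junctional molecule JAM2 (-1.18) and the endothelial and melanoma adhesion molecule MCAM (-1.15) were called lower as well. BSG (basigin), the most abundant of the list, fell from 155 ± 5.14 to 113 ± 5.51 FPKM (log2 fold change -0.52). THY1, NECTIN2, NECTIN3 and LSAMP were the others that fell. NECTIN1 rose from 27.9 ± 7.28 to 57.7 ± 2.50 FPKM (log2 fold change 0.98, edgeR adjusted p = 6.67e-08). KIRREL2, MCAM, NECTIN2 and LSAMP did not pass on the log2(FPKM + 1) scale. NECTIN1 (1.19) and NECTIN3 (-1.08) were called when si-SCR library 3 was left out. CNTN4, the other contactin that was tested, did not pass (-0.09), and CNTN3, CNTN5 and CNTN6 lay at or under 3 counts in every library.

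Of 23 ligands and membrane partners, 12 were tested, 7 passed as lower (58.3%) and 2 as higher, beside 14.2% of all genes tested in each direction, with a median of -0.37. CNTNAP2 (Caspr2), a partner of CNTN2 at axons, went from 2.27 ± 0.213 to 0.603 ± 0.129 FPKM (log2 fold change -1.97, edgeR adjusted p = 1.33e-09). NRP1, the semaphorin co-receptor that binds L1CAM, was 16.8, 10.8 and 6.08 FPKM with si-SCR and 3.24, 3.49 and 3.50 FPKM with si-CyCoNP. Its controls were spread widely with si-SCR library 3 lowest, but the groups did not overlap (log2 fold change -1.79, SE 0.212, edgeR adjusted p = 2.24e-07, and -2.12 without that library). The heparan sulphate proteoglycan AGRN (-1.24), CNTNAP1 (-0.80), the heparin-binding factor MDK (-0.50), GDNF (-0.43) and PRNP (-0.30) fell, with overlapping groups for GDNF. On the log2(FPKM + 1) scale AGRN, MDK, GDNF and PRNP did not pass, and without si-SCR library 3 neither GDNF (-0.24, edgeR adjusted p = 0.167) nor PRNP (-0.27, edgeR adjusted p = 0.0999) did. FGFR1, through which NCAM1 and L1CAM signal, rose from 6.05 ± 0.562 to 10.4 ± 0.720 FPKM (log2 fold change 0.71, edgeR adjusted p = 1.73e-06), and PTN rose with it (0.45).

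Among 30 cytoplasmic partners and processing enzymes 27 were tested, 10 passed as lower (37.0%) and 3 as higher, beside the same 14.2% in each direction, with a median of -0.19. The membrane-actin linker RDX (radixin) was the only one called, at 10.6 ± 0.214 FPKM with si-SCR and 4.46 ± 0.117 FPKM with si-CyCoNP (log2 fold change -1.31, edgeR adjusted p = 2.37e-10). Of the ankyrins and spectrins, ANK2 (-0.92) and SPTAN1 (-0.43) fell, and ANK1, ANK3 and SPTBN1 did not pass. ANK2 was called too (-1.03) when si-SCR library 3 was left out, and ANK3 then passed as lower (-0.56, edgeR adjusted p = 0.000656). Of the proteases that cut these molecules from the surface, ADAM17 fell (-0.70), BACE1 rose (0.44) and ADAM10 did not pass (-0.19). Others that fell were PSEN2 (-0.67), DLG1 (-0.51), DCX (-0.46), EZR (-0.38) and NUMB (-0.25), of which PSEN2, DCX and NUMB did not pass on the log2(FPKM + 1) scale. The kinase PTK2 (focal adhesion kinase) rose (0.58), while FYN (0.01) and SRC (0.05) did not pass. ST8SIA2 (0.11) and ST8SIA4 (-0.12), which put polysialic acid on NCAM1, did not pass, and their groups overlapped.

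**Figure D4:**
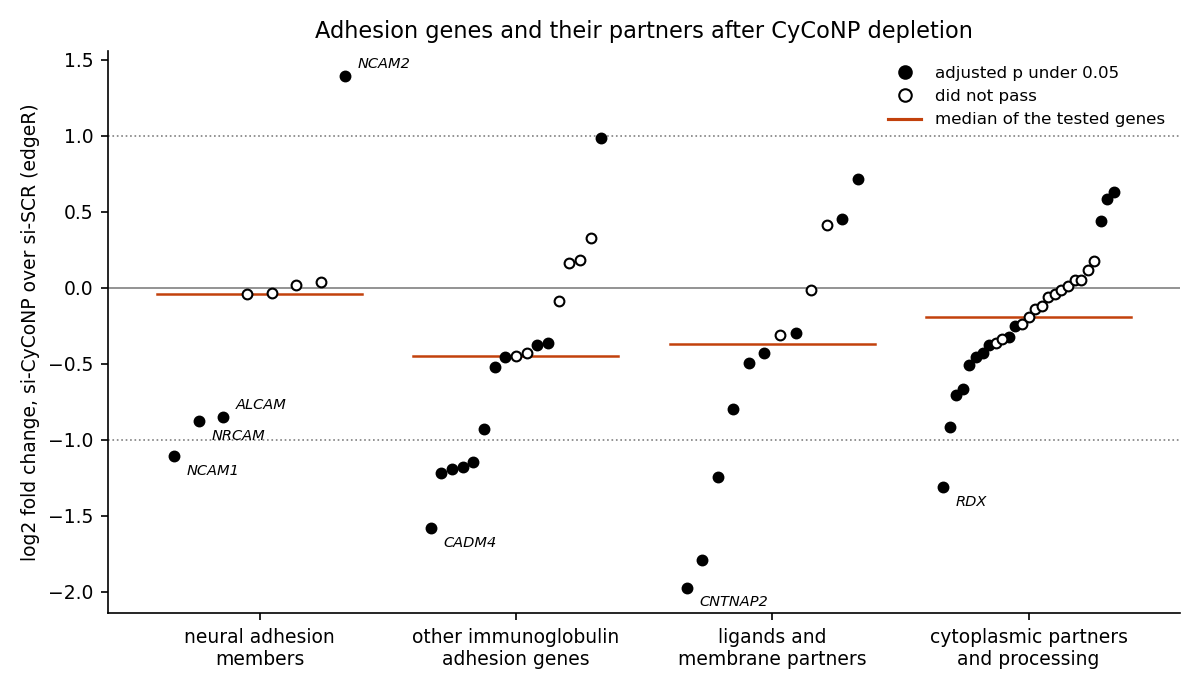
Log2 fold change of si-CyCoNP over si-SCR (vertical) for every tested gene of the 4 groups (horizontal), sorted within each group, filled where the adjusted p of the edgeR test was under 0.05, with the group median as an orange line and with the passing members and the lowest gene of each other group named. The medians lie at -0.04 for the members, -0.45 for other immunoglobulin adhesion genes, -0.37 for ligands and membrane partners and -0.19 for cytoplasmic partners.

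The makeup of the cultures was looked at with marker genes. All 8 noradrenergic neuroblastoma markers were expressed, with a summed level of 1924 to 2205 FPKM with si-SCR and 1740 to 1861 FPKM with si-CyCoNP. Of these, 5 fell (GATA2 -1.06, CHGA -1.24, HAND2 -0.61, GATA3 -0.40 and DBH -0.36), MYCN rose (0.84), and ISL1 and TH did not pass, where 14.2% of all genes tested passed in each direction. ISL1 passed as lower when si-SCR library 3 was left out (-0.38, edgeR adjusted p = 0.0028). GATA3 had overlapping groups and ran from -0.59 to -0.15 over the alternatives, with an adjusted p of up to 0.397, and was at -0.15 without si-SCR library 1. DBH did not pass on the log2(FPKM + 1) scale. The 8 mesenchymal markers summed to 108 to 130 FPKM with si-SCR and 111 to 115 FPKM with si-CyCoNP, with FN1 (2.88) and SOX9 (0.78) higher, SNAI2 (-1.27) and VIM (-0.43) lower and PRRX1 at or under 3 counts in every library. CD44 did not pass (-0.36), but passed as lower when si-SCR library 3 was left out (-0.78, edgeR adjusted p = 0.00184). Among the Schwann cell markers reported here, SOX10 and ERBB3 lay at or under 3 counts in every library, and S100B was below the expression filter. The part of these shifts in the values of the adhesion genes was not tested.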

How the data were processed

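The 3 si-SCR and 3 si-CyCoNP libraries of SK-N-BE cells were stranded total RNA libraries made after ribosomal RNA depletion. By the submitters' processing notes, reads were handled with Trimmomatic 0.39, Cutadapt 3.2, Bowtie2 2.4.2 and STAR 2.7.7a on GRCh38. The deposited table of counts holds raw counts per Ensembl gene made by the authors with STAR, which drops fragments that map to several places. The deposited FPKM table, also made by the authors, scales these counts by gene length and library total, without correction for composition, and gave the same gene length in all libraries for all 22586 genes compared (relative tolerance 1e-06). Of the identifiers, 60357 matched a symbol.

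Here the filter of the study was kept (mean FPKM of 1 or more in at least 1 of the groups), and counts were compared with the edgeR 4.0.16 quasi-likelihood test (TMM scaling, R 4.3.3), with Benjamini-Hochberg adjustment over 13966 genes. Ratios to NCAM1 were tested with limma 3.58.1 on log2 CPM with a prior count of 2, adjusted over 13965 genes. Scripts were tested on simulated data. Samples were grouped by their titles. Alternatives were DESeq2 1.42.0, DESeq2 size factors, library totals, other filters, another prior count, limma on log2(FPKM + 1) or log2(FPKM + 0.1), a replicate block and leaving out each library. Named genes were all members, the targeted gene, list genes that passed, genes overlapping a member, and the 5 genes closest to NCAM1. Some listed genes are counted in the summaries, but their values are not reported here. The members and lists were chosen with earlier results of these data known. PCR duplicates are part of the counts, so floors cover counting error only.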

Additional observations from a re-analysis of the deposited data

How the results depend on the processing

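NCAM1 passed as lower under every alternative, but its log2 fold change was just inside the fold threshold on the log2(FPKM + 1) scale (-0.99) and without si-SCR library 2 (-0.999), and ran from -1.27 to -0.999 when single libraries were left out. The number of members called lower was 1, and 2 with no expression filter, where CNTN2 was added, 0 on the log2(FPKM + 1) scale, and between 0 and 3 when single libraries were left out, 0 without si-SCR library 2 and 3 without si-SCR library 3. With log2(FPKM + 1) values 180 genes were called lower and 207 higher, against 416 and 319. The share of all genes tested that passed is not given here for any alternative, and the 14.2% in each direction belongs to the main test. The numbers that passed as lower with log2(FPKM + 1) and with log2(FPKM + 0.1) were 6 and 6 for other immunoglobulin adhesion genes, 3 and 3 for ligands and membrane partners, and 6 and 6 for cytoplasmic partners. For other immunoglobulin adhesion genes 2 passed as higher with log2(FPKM + 0.1), and 1 to 2 when single libraries were left out, with 2 without si-CyCoNP library 3. The cause of these differences was not tested.

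The members that did not pass changed sign. L1CAM had a log2 fold change of 0.029 with library totals alone, 0.0273 with log2(FPKM + 1) and 0.0276 with log2(FPKM + 0.1), and -0.0726 to 0.00606 when single libraries were left out. CADM1 had 0.0292, 0.0236 and 0.0239 under the same scales, and -0.132 to 0.0187 without single libraries. Without single libraries NFASC ran from -0.105 to 0.115 and CNTN1 from -0.121 to 0.165. Library totals alone moved the median of all genes to 0.07.

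With the replicate number as a block NCAM1 had a log2 fold change of -1.09 and 1 member was called in each direction. ANK3 (edgeR adjusted p = 0.0138) and ADAM10 (edgeR adjusted p = 0.0359) passed as lower with the block, and the numbers that passed as lower became 11 for other immunoglobulin adhesion genes, 8 for ligands and membrane partners and 13 for cytoplasmic partners, while ligands and membrane partners that passed as higher became 3. The share of all genes tested that passed with the block is not given here. The numbers were not taken to pair the libraries, since same-numbered libraries deviated together with r of 0.0907, 0.0727 and 0.108 across genes, although each library correlated best with its own number. Low counts limited CHL1, at 0 throughout, CNTN2, and the listed genes near 1 FPKM. With 3 libraries a group, an exact permutation test of a single value cannot go below 0.1.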

Other observations

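Several of the listed genes are known binding partners of each other or are sister genes, and a pair of each kind went in opposite directions. NECTIN1 and NECTIN3 bind each other across cell contacts. NECTIN1 was 25.1, 22.3 and 36.1 FPKM with si-SCR and 56.7, 60.5 and 55.8 FPKM with si-CyCoNP, while NECTIN3 was 4.53, 4.03 and 3.22 FPKM with si-SCR and 2.13, 2.10 and 2.22 FPKM with si-CyCoNP. The groups did not overlap for either gene, and NECTIN3 fell (log2 fold change -0.93, SE 0.164, edgeR adjusted p = 7.54e-05) where NECTIN1 rose. PTN and MDK are sister heparin-binding growth factors. PTN was 62.6, 61.3 and 67.4 FPKM with si-SCR and 84.9, 95.5 and 93.5 FPKM with si-CyCoNP, and MDK was 126, 128 and 109 FPKM with si-SCR and 108, 91.3 and 70.4 FPKM with si-CyCoNP. MDK fell by less than the fold threshold (log2 fold change -0.50), and on the log2(FPKM + 1) scale it had -0.44 and did not pass (limma adjusted p = 0.0924). The differences between the genes of a pair were not tested.

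CNTN1, CNTNAP1 and NFASC form the complex that joins axon and glia beside nodes of Ranvier. Of these, CNTNAP1 fell, with 15.95, 17.3 and 16.4 FPKM with si-SCR and 9.71, 10.5 and 9.64 FPKM with si-CyCoNP (log2 fold change -0.80, SE 0.0962, edgeR adjusted p = 2.86e-07), whereas CNTN1 and NFASC, as given above, did not pass. CNTNAP2 had its partner CNTN2 at a few counts, and was itself 2.22, 2.50 and 2.08 FPKM with si-SCR and 0.560, 0.747 and 0.501 FPKM with si-CyCoNP.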
